A study of Mus musculus with 6 samples.

Results

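Pan-endothelial genes are the transcripts shared by the cells that line blood vessels, and 36 of them were followed here in mouse trunks of embryonic day 9.5. The members were receptors and their ligands, proteins of junctions, surface and effector function, transcription factors, and genes of veins and lymphatics. A probe of the array belonged to a member when its RefSeq accession mapped to that gene. All 36 members were matched, by 44 probes, among 19794 genes and 24421 probes tested in all. The compared groups were 3 Arid3b-null samples and 3 wild-type samples, each a pool of RNA from 4 embryos, so that 24 embryos stand behind 6 one-colour arrays. Arid3b encodes a DNA-binding protein of the ARID family. The trunk was taken with the forelimb buds, its front end at the otic vesicle and its rear end at somite 15. The allele, strain and somite stage of the pools are not given in the sources used here. The spread between arrays is that between pools, not between embryos.

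Endothelium forms from mesodermal angioblasts, in which the factor ETV2 starts the programme and the ETS factors ERG, FLI1 and ETS1 maintain it. Growth and survival are then governed by receptor tyrosine kinases at the cell surface, VEGF receptors that answer VEGF ligands and TIE receptors that answer angiopoietins. By this stage the first arteries and veins carry blood, and NR2F2 marks venous endothelium. Lymphatic endothelium arises from the cardinal vein and is only beginning to form.

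Signals are on a log2 scale, with each array's 75th percentile subtracted, so that 0 is the array's own upper quartile. A change is the Arid3b-null mean minus the wild-type mean on this scale. A gene passed, or was called, when its limma p, adjusted by Benjamini-Hochberg over all genes tested, was under 0.05. Arid3b read 0.54, 0.65 and 0.46 in Arid3b-null trunks, against 2.18, 2.57 and 1.97 in wild type, a change of -1.69 ± 0.17 (SE) on its brightest probe. Its dimmer probes were lower too, with Arid3b-null means of -6.54 and -6.32 against -4.64 and -3.09 in wild type. On Arid3b-null replicate 3 both dimmer probes lay under that array's lowest well-above-background signal (-5.79), so that no size is given for them. Every member was well above background on all 6 arrays, with the exception of Lyve1 on the array of Arid3b-null replicate 3. The defining endothelial markers Pecam1, Cdh5, Kdr and Tie1 were thus measured in every pool.

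Of the 36 members, 7 rose and 3 fell in Arid3b-null trunks, which is 27.8% called. Among all genes tested 26.6% were called, 13.6% higher and 12.9% lower, so the share of called members lay near the background. The genes that rose were Stab1, Nr2f2, Angpt2, Apln, Tie1, Cd93 and Flt1, and those that fell were Lyl1, Nos3 and Aplnr. The median change of the members was 0.21, beside -0.04 over all genes tested, and the medians within slides 1, 2 and 3 were 0.22, 0.16 and 0.16. For 20 members, 12 higher and 8 lower, no array of one genotype overlapped those of the other. Such separation was found in 46.2% of all genes, 23.0% higher and 23.2% lower. Only Stab1 passed with a change of at least 2-fold, as did 6.55% of all genes tested. The mean log2 signal of the members was 0.062, 0.146 and 0.035 on the Arid3b-null arrays, against -0.096, 0.002 and -0.084 on the wild-type arrays. Because whole trunks were measured, fewer endothelial cells and less RNA per endothelial cell cannot be told apart, nor can more cells and more RNA.

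**Figure D1:**
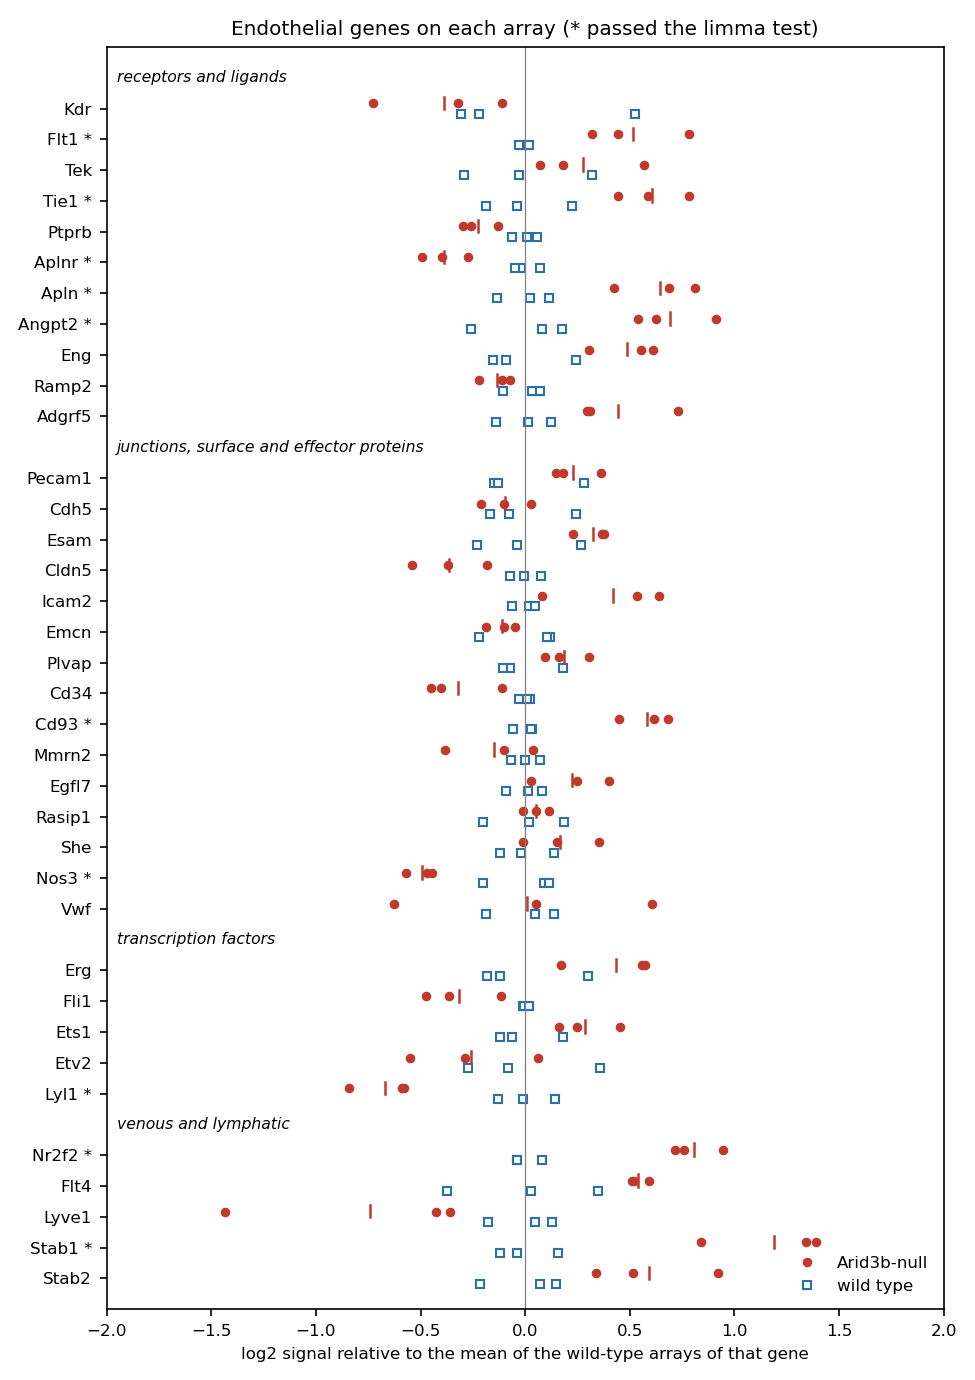
Each row is an endothelial gene and each point an array, drawn as log2 signal relative to the wild-type mean of that gene (horizontal axis). Filled circles are the 3 Arid3b-null arrays with their mean as a bar, open squares the 3 wild-type arrays, and an asterisk marks genes that passed the test. Stab1 and Nr2f2 stand clear to the right and Lyl1 to the left, while the points of Cdh5, Emcn and Rasip1 intermix.

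The arrays of wild type replicate n and Arid3b-null replicate n shared a slide, with wild type always at array position 1 and Arid3b-null at position 2, so that position and genotype cannot be told apart. The 10 called members kept their sign on every slide, which their non-overlapping arrays fix. With the slide as a block 6 members were called higher and 1 lower. Stab1, Nr2f2, Angpt2, Apln, Cd93 and Lyl1 passed in that fit, as did Eng (adjusted p = 0.0492). Tie1 (0.0508), Flt1 (0.0521), Nos3 (0.0555) and Aplnr (0.0654) did not (limma adjusted p).

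RefSeq promoter windows, 250 bases before to 50 after a start, were at hand for 20 of the members in 25 windows of build GRCm38.p6. The 5 shown belong to Stab1, Tie1, Flt1, Kdr and Lyl1. Stab1 was the strongest riser and Lyl1 the strongest faller among called members. Tie1 and Flt1 were called receptor genes, and the Kdr probes disagreed. Capitals mark the letters AGGAAG or CGGAAG, a core that ETS factors bind, and ACGTG or GCGTG, the core of the hypoxia response element, on either strand.
Stab1 promoter, chr14:31168592-31168891, minus strand: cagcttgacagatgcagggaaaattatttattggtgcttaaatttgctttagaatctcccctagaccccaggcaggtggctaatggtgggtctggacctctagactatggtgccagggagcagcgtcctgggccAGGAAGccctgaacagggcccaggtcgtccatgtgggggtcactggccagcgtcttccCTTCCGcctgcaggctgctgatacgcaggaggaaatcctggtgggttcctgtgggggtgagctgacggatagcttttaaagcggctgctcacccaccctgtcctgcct
Tie1 promoter, chr4:118489800-118490099, minus strand: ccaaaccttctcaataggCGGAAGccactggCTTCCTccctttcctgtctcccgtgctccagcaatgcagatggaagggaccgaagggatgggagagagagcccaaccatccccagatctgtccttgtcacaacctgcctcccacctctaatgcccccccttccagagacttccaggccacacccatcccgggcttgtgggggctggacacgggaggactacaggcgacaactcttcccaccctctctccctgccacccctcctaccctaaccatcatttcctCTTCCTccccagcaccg
Flt1 promoter, chr5:147725962-147726261, minus strand: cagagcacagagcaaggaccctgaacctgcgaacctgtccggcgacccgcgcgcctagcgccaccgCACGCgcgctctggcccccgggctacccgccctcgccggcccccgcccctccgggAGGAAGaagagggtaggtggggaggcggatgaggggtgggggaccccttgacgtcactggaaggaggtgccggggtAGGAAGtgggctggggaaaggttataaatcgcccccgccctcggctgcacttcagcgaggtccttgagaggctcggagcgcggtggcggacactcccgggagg
Kdr promoter, chr5:75978406-75978705, minus strand: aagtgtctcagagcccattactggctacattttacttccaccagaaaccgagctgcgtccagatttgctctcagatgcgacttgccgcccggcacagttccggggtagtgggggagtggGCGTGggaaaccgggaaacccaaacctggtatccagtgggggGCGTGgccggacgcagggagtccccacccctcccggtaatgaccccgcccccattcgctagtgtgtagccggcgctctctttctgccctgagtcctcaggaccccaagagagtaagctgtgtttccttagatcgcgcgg
Lyl1 promoter, chr8:84701207-84701506, plus strand: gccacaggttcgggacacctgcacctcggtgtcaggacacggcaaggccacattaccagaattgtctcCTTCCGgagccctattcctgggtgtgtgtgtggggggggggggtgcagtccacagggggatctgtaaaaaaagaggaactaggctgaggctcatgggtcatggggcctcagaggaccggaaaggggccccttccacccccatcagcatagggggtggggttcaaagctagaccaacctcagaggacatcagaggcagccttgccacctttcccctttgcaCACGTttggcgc

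Tie1 held 3 matches of the ETS letters and no match of the hypoxia letters. Stab1 held 2 and 0, Flt1 2 and 1, Lyl1 1 and 1, and Kdr 0 and 2. Over all member windows the ETS letters were found in 17 of 25 (68.0%) and in 46.5% of 32851 windows of all genes, and the hypoxia letters in 8 of 25 (32.0%) and in 43.8%. A match is a run of letters, and binding was not measured.

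Of 11 receptors and ligands 4 rose and 1 fell, with a median change of 0.45. This is 45.5% called, beside 26.6% of all genes, a difference that was not tested. Angpt2, the angiopoietin that endothelial cells release when vessels remodel, read -2.65, -2.36 and -2.73 in Arid3b-null trunks and -3.09, -3.19 and -3.53 in wild type. All Arid3b-null arrays were above all wild-type arrays, a change of 0.69 ± 0.16 (SE, 1.62-fold, limma adjusted p = 0.0232). Tie1, an orphan receptor that partners TEK, read -0.12, 0.02 and 0.21 in Arid3b-null trunks, against -0.61, -0.34 and -0.76 in wild type. The groups did not overlap, and Tie1 changed by 0.60 ± 0.15 (SE, 1.52-fold, limma adjusted p = 0.0281). Tek, the angiopoietin receptor, read -3.46, -3.57 and -3.08 in Arid3b-null trunks and -3.68, -3.33 and -3.94 in wild type, so that the groups overlapped, and it did not pass (0.27, 95% confidence interval -0.21 to 0.76). Ptprb, the phosphatase VE-PTP that restrains TEK, was lower on all Arid3b-null arrays without passing (-0.23, 95% interval -0.47 to 0.02), and its dimmer probe also did not pass (-0.65 ± 0.20, limma adjusted p = 0.0569).

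The VEGF receptors differed in their readings. Flt1, a receptor that binds VEGF tightly and limits its signal, read 0.88, 1.23 and 0.76 in Arid3b-null trunks and 0.41, 0.45 and 0.46 in wild type. It was higher on every Arid3b-null array, by 0.52 ± 0.14 (SE, 1.43-fold, limma adjusted p = 0.0383). Kdr, the main signalling receptor for VEGFA, had 2 probes of the same transcript accession that went in opposite directions. The probe that represented the gene read 2.29, 1.68 and 2.08 in Arid3b-null trunks, against 2.18, 2.10 and 2.93 in wild type, with a change of -0.39 (95% interval -1.01 to 0.24). That probe did not pass, and wild type replicate 3 stood above the other 5 arrays. The other probe read 1.91, 2.13 and 2.11 in Arid3b-null trunks, against 1.17, 1.43 and 1.26 in wild type, a change of 0.76 ± 0.12 (SE, 1.69-fold, limma adjusted p = 0.0066 over all probes). Its within-slide changes were 0.74, 0.69 and 0.85, where those of the representing probe were 0.11, -0.42 and -0.85. The second minus the representing probe averaged 0.030 ± 0.415 in Arid3b-null and -1.116 ± 0.511 in wild type (SD, n = 3 each). The probes give Kdr no single direction, and the place of each probe in the transcript was not analysed here.

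**Figure D2:**
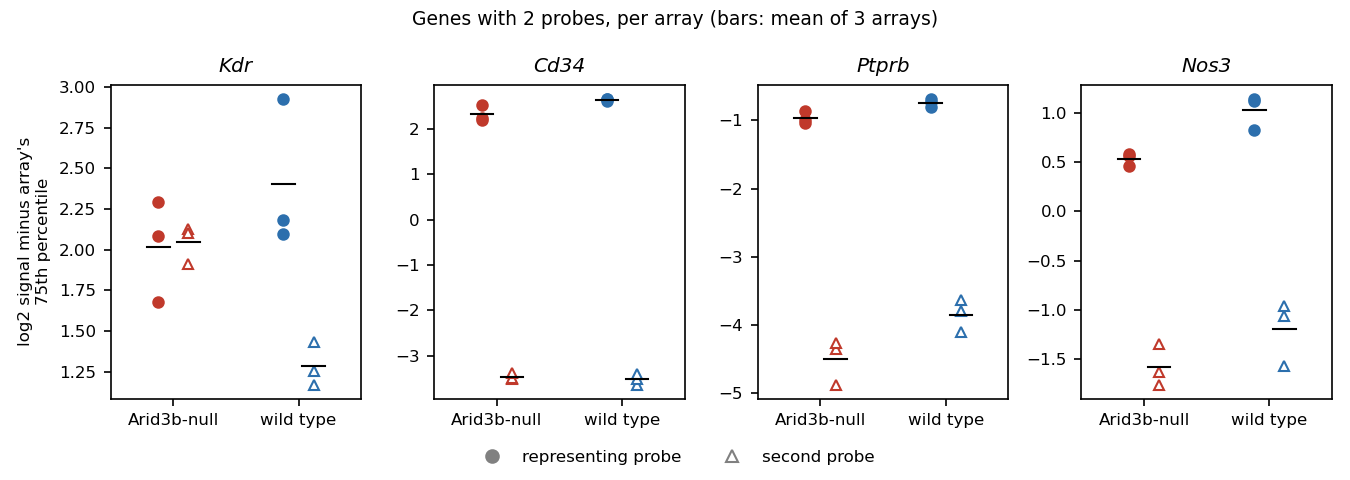
Log2 signal minus the array's 75th percentile (vertical axis) is shown for 4 members with 2 probes in Arid3b-null and wild-type trunks, a point per array with the mean of 3 as a bar. Circles are the probe that represents the gene and triangles the second probe. In Kdr the triangles are higher in Arid3b-null than in wild type while the circles overlap, and in Ptprb and Nos3 the means of both probes lie lower in Arid3b-null.

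Of the 8 members with 2 probes, 6 had probes that agreed in sign (Ptprb, Plvap, Nos3, Erg, Ets1 and Etv2) and 2 did not. Beside Kdr this was Cd34, with -0.32 on the bright probe and 0.05 on the dim probe, neither passing. Counted by probes, 11 of 44 member probes passed, beside 26.3% of all probes tested.

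The apelin pair went in opposite directions. Apln, the ligand apelin of sprouting tip cells, read -0.27, -0.15 and -0.53 in Arid3b-null trunks and -0.94, -0.85 and -1.09 in wild type. It was higher in all Arid3b-null pools, by 0.64 ± 0.14 (SE, 1.56-fold, limma adjusted p = 0.0176). Aplnr, its receptor in venous and sprouting endothelium, read -0.09, -0.21 and -0.31 in Arid3b-null trunks, against 0.17, 0.26 and 0.14 in wild type. Here the Arid3b-null arrays were all lower, with a change of -0.39 ± 0.11 (SE, limma adjusted p = 0.0392), or 0.764 times wild type. The call of Aplnr was lost whichever array was left out (adjusted p = 0.0537 to 0.112), and that of Flt1 with any array but Arid3b-null replicate 3 left out (0.0709 to 0.113).

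The remaining receptors did not pass. Eng, a co-receptor for BMP9 of the TGF-beta family, read 0.38, 0.68 and 0.63 in Arid3b-null trunks and -0.02, 0.32 and -0.08 in wild type, a change of 0.49 ± 0.15 (SE) with adjusted p = 0.0545 in limma. It passed without wild type replicate 2 (adjusted p = 0.0402). Adgrf5, an adhesion G protein-coupled receptor, was also higher on all Arid3b-null arrays (0.45, 95% interval 0.08 to 0.81, limma adjusted p = 0.0767). Ramp2, the partner of the adrenomedullin receptor CALCRL, read 2.97, 2.94 and 2.83 in Arid3b-null trunks and 3.08, 3.12 and 2.94 in wild type. The groups overlapped, with a change of -0.14 (95% interval -0.39 to 0.12). Angpt2 no longer passed when any array but wild type replicate 1 or Arid3b-null replicate 3 was left out (adjusted p = 0.0529 to 0.0661). For Tie1 the exceptions were wild type replicate 2 and Arid3b-null replicate 1 (0.0720 to 0.0903 otherwise), and for Apln wild type replicate 2 and Arid3b-null replicate 3 (0.0531 to 0.0586 otherwise).

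Junction, surface and effector genes formed the biggest group. Of the 15 genes of junctions, surface and effector function, 1 rose, 1 fell and 13 did not pass (13.3% called, beside 26.6% of all genes, a difference that was not tested), with a median change of 0.05. Cdh5, the VE-cadherin of adherens junctions, read -0.62, -0.73 and -0.49 in Arid3b-null trunks and -0.60, -0.69 and -0.28 in wild type. The groups overlapped, and the change of -0.09 had a 95% interval of -0.43 to 0.25. Pecam1, an adhesion molecule at endothelial contacts, read -2.69, -2.73 and -2.51 in Arid3b-null trunks and -2.59, -3.02 and -3.00 in wild type, again overlapping (0.23, interval -0.13 to 0.59). Emcn, the sialomucin endomucin, had an interval of -0.42 to 0.20, and Rasip1, a Ras-interacting protein needed for tube formation, of -0.26 to 0.36. For Cdh5, Emcn and Rasip1 these intervals lie within 1.5-fold in either direction.

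Among the other surface genes Cd93, a C-type lectin-like receptor of endothelium and myeloid cells, read 2.24, 2.31 and 2.07 in Arid3b-null trunks and 1.57, 1.66 and 1.66 in wild type. The groups were well apart, with a change of 0.58 ± 0.11 (SE, 1.5-fold, limma adjusted p = 0.0109), lost without wild type replicate 1 (adjusted p = 0.0505). Mmrn2, a matrix ligand of CD93, read 1.117, 1.539 and 1.399 in Arid3b-null trunks and 1.497, 1.434 and 1.570 in wild type, so that the groups overlapped. Cldn5, the claudin of endothelial tight junctions, was lower on all Arid3b-null arrays, at 2.11, 1.76 and 1.92 against 2.37, 2.22 and 2.29 in wild type, without passing (-0.36, interval -0.66 to -0.07, limma adjusted p = 0.0744). Esam, another tight junction protein, had 0.32 (interval -0.03 to 0.68). Icam2, an adhesion molecule for leukocytes, had 0.42 (0.03 to 0.81), and Plvap, the diaphragm protein of fenestrae, 0.19 (-0.11 to 0.48). Icam2 passed without Arid3b-null replicate 3 (adjusted p = 0.0276). Cd34, a sialomucin of endothelium and blood progenitors, had -0.32 (-0.61 to -0.03) on its bright probe and passed without Arid3b-null replicate 2 (adjusted p = 0.0491).

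Nos3, the endothelial nitric oxide synthase, fell. It read 0.56, 0.46 and 0.58 in Arid3b-null trunks, against 1.12, 1.14 and 0.83 in wild type. No Arid3b-null array reached a wild-type array, and the change was -0.49 ± 0.12 (SE, limma adjusted p = 0.0288), or 0.711 times wild type. The second Nos3 probe had the same sign without passing (-0.38 ± 0.20), and the call was lost with any array but wild type replicate 3 left out (adjusted p = 0.0681 to 0.103). Egfl7, a secreted endothelial protein, had 0.23 (interval -0.08 to 0.54) and She, an adaptor with an SH2 domain, 0.17 (-0.16 to 0.49). Vwf, von Willebrand factor, was scattered in Arid3b-null trunks at 0.00, 0.69 and 1.24, against 0.44, 0.68 and 0.77 in wild type, with a change of 0.01 (-0.71 to 0.73).

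**Figure D3:**
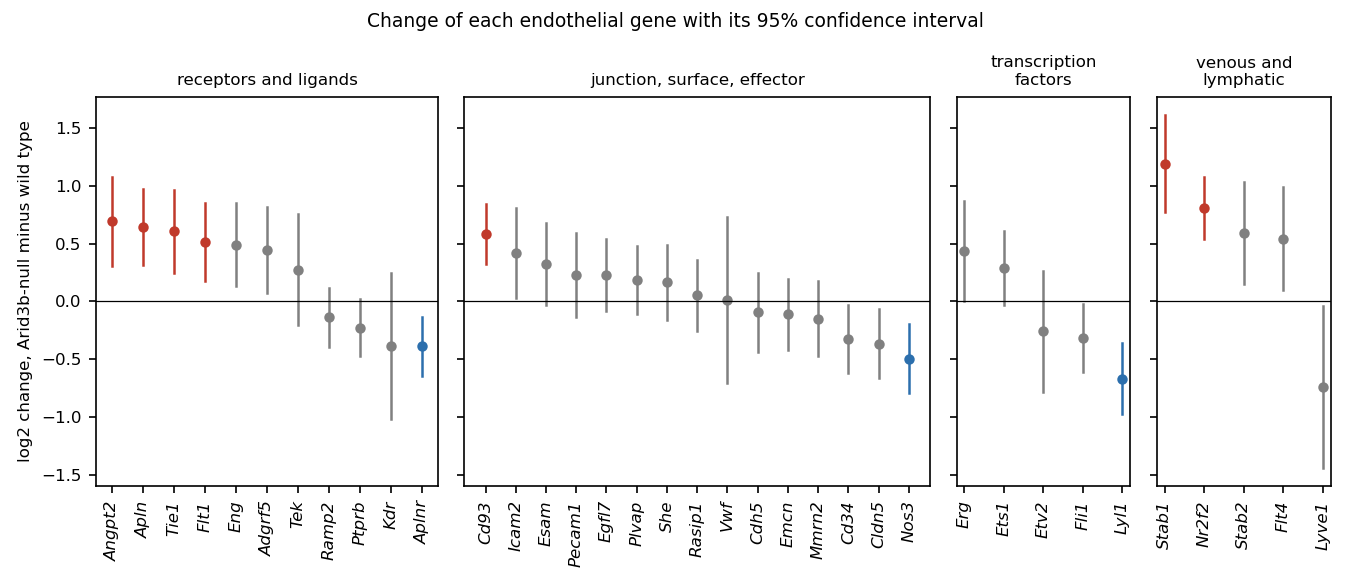
The log2 change of each endothelial gene, Arid3b-null minus wild type (vertical axis), is drawn with its 95% confidence interval, sorted within the 4 groups of genes. Red genes passed as higher, blue genes as lower, and grey genes did not pass. The junction, surface and effector panel lies around 0, with Cd93 at 0.58 and Nos3 at -0.49 as its extremes.

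Transcription factors of the endothelial programme gave 0 rises, 1 fall and 4 genes that did not pass. This is 20% called, beside 26.6% of all genes, a difference that was not tested. Lyl1, a basic helix-loop-helix factor shared by endothelium and blood progenitors, read 1.01, 1.02 and 0.76 in Arid3b-null trunks and 1.47, 1.74 and 1.59 in wild type. The groups did not overlap, the change was -0.67 ± 0.13 (SE, limma adjusted p = 0.0122), which is 0.629 times wild type. Lyl1 passed whichever array was left out. The ETS factors had different signs, none passing. Erg read -2.35, -2.34 and -2.75 in Arid3b-null trunks and -3.096, -3.036 and -2.612 in wild type, overlapping, with a change of 0.43 (interval 0.0026 to 0.87, limma adjusted p = 0.123). Fli1, which is also made by megakaryocytes and blood progenitors, read -0.89, -0.65 and -1.01 in Arid3b-null trunks, against -0.54, -0.54 and -0.51 in wild type. All Arid3b-null arrays were lower, with a change of -0.32 (interval -0.61 to -0.02, limma adjusted p = 0.103). Ets1, also present in neural crest and mesenchyme, had 0.29 (-0.03 to 0.61). Etv2, the early initiator, had -0.26 (-0.78 to 0.27) and overlapped between groups on both probes.

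The venous and lymphatic genes held the largest of the called changes, with 2 of 5 called higher, 0 lower and arrays of the groups apart for all 5. Over all genes tested 26.6% were called and 46.2% were apart, and of the 5 Lyve1 was apart with 1 Arid3b-null array not well above background. Stab1, a scavenger receptor of sinusoidal endothelium and of macrophages, read 1.62, 2.12 and 2.17 in Arid3b-null trunks and 0.66, 0.94 and 0.74 in wild type. The lowest Arid3b-null pool was well above the highest wild-type pool, a change of 1.19 ± 0.18 (SE, 2.28-fold, limma adjusted p = 0.00509). Nr2f2, the venous identity factor COUP-TFII that is also widely made in mesenchyme, read 2.54, 2.77 and 2.58 in Arid3b-null trunks, against 1.79, 1.91 and 1.79 in wild type. It rose by 0.81 ± 0.11 (SE, 1.75-fold, limma adjusted p = 0.00405), the smallest adjusted p of the members. Both genes passed whichever array was left out, with the slide as a block and in the deposited value table.

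The other genes of this group did not pass. Stab2, the hyaluronan receptor of sinusoids, read -2.40, -1.99 and -2.58 in Arid3b-null trunks and -2.85, -3.13 and -2.77 in wild type, higher on all Arid3b-null arrays (0.59 ± 0.18, limma adjusted p = 0.0561). Flt4, the VEGFC receptor of veins and lymphatics, read -4.03, -3.95 and -4.02 in Arid3b-null trunks and -4.52, -4.20 and -4.92 in wild type. It too was higher on all Arid3b-null arrays (0.54 ± 0.19, limma adjusted p = 0.0751) and passed without wild type replicate 2 (adjusted p = 0.0347). Lyve1, a hyaluronan receptor of lymphatic endothelium and of macrophages, went down, at -4.83, -4.76 and -5.84 in Arid3b-null trunks against -4.58, -4.28 and -4.36 in wild type. Arid3b-null replicate 3, where the probe was not well above background, was far below the others, and the change of -0.74 did not pass (interval -1.44 to -0.04, limma adjusted p = 0.108).

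The ligands and co-receptors of these receptors were followed in a list of their own. In the list of the VEGF, angiopoietin and apelin pathway 9 genes rose and 1 fell of 19 tested, with a median change of 0.47. That is 52.6% called, beside 26.6% of all genes, and the difference was not tested. Of the 19 genes 6 passed with a change of at least 2-fold, as did 6.55% of all genes tested. Vegfa, the ligand of FLT1 and KDR, read 2.885, 3.102 and 2.853 in Arid3b-null trunks and 0.83, 0.90 and 0.65 in wild type. The groups were far apart, a change of 2.15 ± 0.12 (SE, 4.44-fold, limma adjusted p = 0.000375). Adm, adrenomedullin, whose receptor contains RAMP2, rose by 3.12 ± 0.18 (SE, 8.71-fold, limma adjusted p = 0.000375). Acvrl1, the ALK1 receptor that works with ENG, rose 2.26-fold and Pdgfb, the ligand by which endothelium recruits mural cells, 2.10-fold.

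Partners of a member outside the naming rule were chosen after their values were seen. Vegfc, the ligand of FLT4, rose 1.83-fold (limma adjusted p = 0.0120), and the VEGF co-receptor genes Nrp1 and Nrp2 rose 2.04-fold and 1.73-fold. Angpt1, the activating ligand of TEK, had -0.05 (limma adjusted p = 0.848). Calcrl, the receptor with which RAMP2 pairs, did not pass (limma adjusted p = 0.663). Calcrl was well above background on 2 of 3 Arid3b-null arrays and on all 3 wild-type arrays, so that no size is given for it. Gdf2, which encodes BMP9, is the 1 fall of the list and among the 6 of at least 2-fold. It was well above background on 1 of 3 Arid3b-null arrays and on all 3 wild-type arrays, so that no size is given for it. Whether the ligands' changes bear on the receptors was not tested.

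A further list of 31 other endothelial genes gave 14 rises and 3 falls, with a median change of 0.34. It shares Acvrl1 and Calcrl with the pathway list, and Tal1, 1 of its 3 falls, with the primitive erythroid markers below. The counts of these lists are thus not independent. The share called was 54.8%, beside 26.6% of all genes, a difference that was not tested. Sox17, an arterial SoxF factor, rose 2.31-fold, Acvrl1 2.26-fold and Ushbp1 1.94-fold, while Gja4, the arterial connexin 37, fell by 0.88 on the log2 scale. Dll4, the Notch ligand of arterial and tip cells, rose 2.14-fold and was chosen after its values were seen. These lists and the members were all chosen with earlier results of the same arrays known, so their counts are a description.

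**Figure D4:**
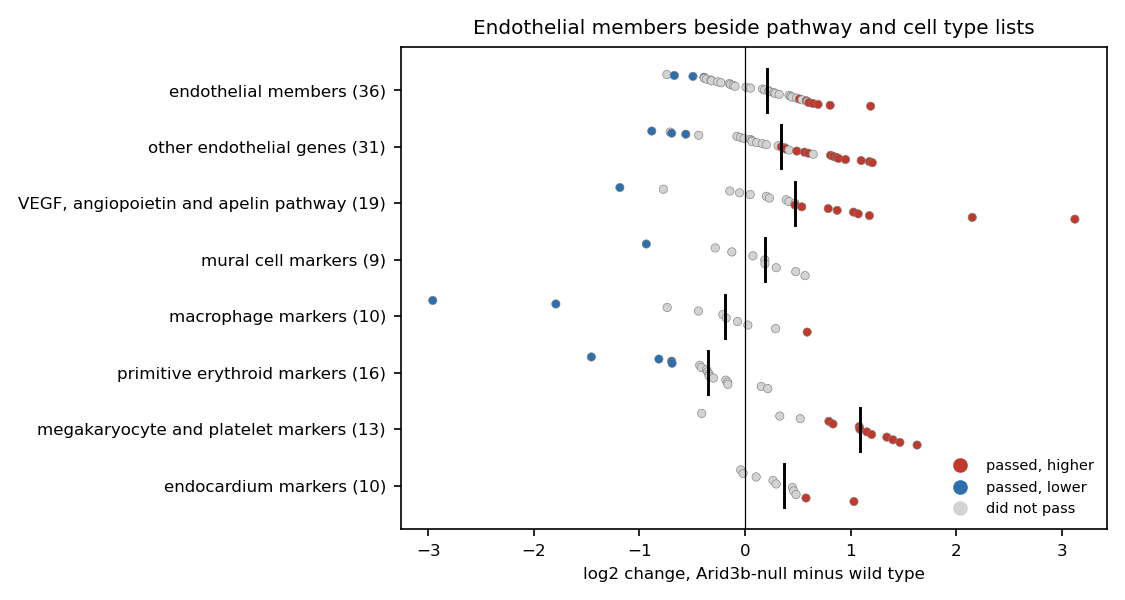
Every point is a gene, placed by its log2 change, Arid3b-null minus wild type (horizontal axis), in the list named on the left with its number of tested genes. Red points passed as higher, blue as lower, grey did not pass, and the black bar is the list's median, 0.21 for the endothelial members, 1.09 for megakaryocyte and platelet markers and -0.35 for primitive erythroid markers.

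Other cells of the trunk share some members with endothelium, and their markers were followed beside them. Of 13 tested megakaryocyte and platelet markers 10 rose and 0 fell, 76.9% called beside 26.6% of all genes, with a summed signal of 7.26 to 9.17 times the 75th percentile in Arid3b-null and 3.15 to 4.22 in wild type. Itga2b rose 3.09-fold, Gp6 2.54-fold, Treml1 2.13-fold and Pf4 2.64-fold. Gp5, named here for its detection, is among the 10 rises and in the sums. It was well above background on all 3 Arid3b-null arrays and on 2 of 3 wild-type arrays, so that no size is given for it. The marker F2rl2 was not well above background on all arrays of either group, and was not tested. Vwf and Fli1, which megakaryocytes also make, did not pass.

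Of 10 tested macrophage markers 1 rose and 2 fell, 30% called beside 26.6% of all genes. Their summed signals were 5.49 to 9.35 in Arid3b-null and 6.64 to 14.5 in wild type. Itgam, named here for its brightness, makes up most of these sums and did not pass (limma adjusted p = 0.721). The falls were Cx3cr1 and Tyrobp, which were well above background on 1 and 2 of the 3 Arid3b-null arrays and on all 3 wild-type arrays, so that no size is given for them. Aif1 rose 1.5-fold. The macrophage genes Ptprc, C1qa, C1qc and Spi1 were not above background, and Csf1r did not pass (-0.74 ± 0.31). These values stand beside Stab1 and Cd93, which were higher, and Lyve1, which was lower without passing, since macrophages make all 3, and their part in those results was not tested.

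Primitive erythroid markers gave 0 rises and 4 falls of 16. This is 25% called, beside 26.6% of all genes in either direction and 12.9% called lower. For 11 of the 16 all Arid3b-null arrays lay below all wild-type arrays, as for 23.2% of all genes. These differences were not tested. The summed signals of the list were 559.7 to 673.4 in Arid3b-null and 711.3 to 922.3 in wild type. The globin genes of the list make up most of these sums, and none of them passed. Klf1 fell by 1.45, Gata1 by 0.82 and Tal1 and Slc4a1 by 0.69 on the log2 scale. Lyl1 is shared by blood progenitors, and the part of blood cells in its fall was not tested. Of 9 tested mural cell markers, which label the pericytes and smooth muscle around vessels, 0 rose and 1 fell, Cspg4 by 0.93, which is 11.1% called. Their summed signals were 26.3 to 35.6 in Arid3b-null and 24.1 to 31.3 in wild type. Rgs5, Kcnj8 and Myh11 were not well above background on all arrays of either group, and were not tested.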

How the data were processed

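Per the labels' protocols, Cy3-labelled RNA of trunks was hybridised to Agilent arrays in a single colour. Per the file headers, the deposited intensity values were made with Feature Extraction 10.7.3.1 (protocol GE1_107_Sep09, design 026655, build mm9): a processed signal, background-subtracted by the scanner software, and median pixel signals of spot and local background. The deposited value table holds log2 values for 24158 non-control probes, by a method not given in the sources used here (column medians 6.77, r of 0.999 to 1.00 with the scanner values), and served as an alternative.

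Accessions were matched, without versions, to a RefSeq table of GRCm38.p6, used for names and promoters only. It named 26424 of 39429 probes (67.0%). Values are log2 processed signal minus the array's 75th percentile (611.2 to 844.4 units). Outlier spots (100 to 169 an array) were dropped and no spot was saturated. Probes well above background on all arrays of a group were tested, and the brightest represented a gene. Limma 3.58.1 in R 4.3.3 was used (lmFit, eBayes, two-sided), after a test on simulated data. The number of arrays limits the precision. Deviations from the group means correlated at 0.163, 0.387 and 0.278 between arrays of the same number, which share a slide, so the slide was also fitted as a block. Members and lists were chosen with earlier results of these data known. The named genes were the 36 members, Arid3b, and per list up to 4 genes by smallest adjusted p (2 where none passed), with defining markers left untested by the background rule.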

Additional observations from a re-analysis of the deposited data

How the results depend on the processing

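The 36 members were recomputed under 16 alternatives, which gave 576 values. Of these 493 kept direction and side of the threshold, 61 kept direction and no longer passed, 6 newly passed and 16 changed sign. Stab1 and Nr2f2 passed under 15 of the 16 alternatives, Lyl1 under 14, Cd93 under 13, Apln under 10, Angpt2 under 9, Tie1 under 7, Flt1 under 6, Nos3 under 5 and Aplnr under 4. The exception for Stab1 and Nr2f2 was the normexp correction with each spot's local background, where 2 genes in all rose, 0 fell and 0 members were called in either direction. Its median over all genes was -0.22 and over the members -0.035. There the sign turned for Adgrf5 (-0.17), Angpt2 (-0.25), Erg (-0.26), Flt4 (-0.60), Mmrn2 (0.090), Pecam1 (-0.50), Ramp2 (0.12), Stab2 (-0.16) and Tek (-0.56), and the cause was not tested. With each array's median background in place of the local values, 8 members were called higher and 2 lower. Without a filter on dim probes, which raises the number tested to 32530 genes, 1288 genes rose and 998 fell, with 2 members called higher and 0 lower. With the deposited values 4 members were called higher and 1 lower, and Cd34 read 0.058 because that table lacks its bright probe. Median scaling left 1 member called lower, and so did the slide as a replicate block. Averaged over its probes Kdr read 0.19. Leaving out each array in turn gave 3 to 7 members called higher and 1 to 2 lower, a member median of 0.13 to 0.23, and 1660 to 2018 genes higher and 1210 to 2024 lower. In these fits the change of Cdh5 ran from -0.18 to 0.026, of Rasip1 from -0.050 to 0.14 and of Vwf from -0.29 to 0.33, so that their signs were not fixed. Lyve1, not well above background on 1 array, has only an upper bound there.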

Other observations

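Endocardium is the endothelial lining of the heart, and a list of 10 of its genes gave 2 rises and 0 falls with a median change of 0.37. The 20% called lay below the 26.6% of all genes, a difference that was not tested. Hapln1, a link protein of the cardiac matrix, rose 1.49-fold (limma adjusted p = 0.0164) and Edn1, endothelin 1, 2.04-fold (limma adjusted p = 0.0186). Nfatc1, the factor of endocardial cushions, and Tmem100, a target of ALK1 signalling, did not pass, with changes of -0.02 and 0.11. Both were chosen after their values were seen. The summed signals of the list were 13.3 to 13.7 times the 75th percentile in Arid3b-null and 11.6 to 13.1 in wild type.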
